A study of Homo sapiens with 18 samples.

Results

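A set of 34 genes of homologous recombination, the Fanconi anemia pathway, mismatch repair and the damage checkpoint was examined as a named list, out of 19720 genes that the array probes could be assigned to. All 34 were on the array, with 50 probes in all. The RNA came from EpCAM+ cells, isolated by sorting, of Huh1 and Huh7, both established human hepatocellular carcinoma (HCC) lines, in cultures kept for 48 hours with disulfiram (DSF, 0.1 µM), with 5-fluorouracil (5-FU, 1 µM) or in the control condition. There were 3 arrays per line and condition, 18 in all. EpCAM is a surface protein that marks tumor-initiating HCC cells, and every group, controls included, consists of cells that passed this gate. The labels name the sort after the treatment without stating the order. Copper chloride accompanied DSF in the methods, with no description of the control medium, and an effect of copper cannot be told apart from one of DSF.

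Homologous recombination repairs a broken chromosome by copying an intact sister strand: the break is sensed, its ends are cut back to single strands, and BRCA2 and its partners load the strand exchange recombinase. The Fanconi proteins unhook crosslinks between the strands and pass the resulting break to the same machinery, while mismatch repair removes wrongly paired bases after replication. 5-FU blocks thymidylate synthesis and is incorporated into DNA and RNA, and DSF is an inhibitor of aldehyde dehydrogenase that binds copper.

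Levels are normalized log2 signals, meaning the log2 of the spot signal after the array's own 75th percentile was subtracted, so a level of 0 lies at that percentile. A change is a difference of such levels and thus stands against the other probes of an array. The brightest probe stood for each gene, and a gene was called higher or lower when limma gave a Benjamini-Hochberg adjusted p under 0.05 over the 29894 probes tested. Every one of the 34 genes was well above background on all 3 arrays of all 6 groups. The log2 75th percentile of the arrays lay between 10.098 and 10.839, and 59.9% to 71.1% of probes per array were well above background. The arrays lay on 3 slides. DSF replicates 2 and 3 of Huh7 were alone on the third slide, which was scanned on another day, and DSF replicate 3 of Huh1 lay on a slide of Huh7 arrays. With the slide as a block, or within a slide, the DSF change in Huh7 thus rests on DSF replicate 1 alone. The 2 settings share the same estimates, and only the sizes are given for them. Set on the 6 spike-in probes in place of the 75th percentile, the median of all probes after 5-FU moved from -0.033 to 0.79 in Huh1 and from -0.048 to 0.94 in Huh7. Within a line every change after 5-FU against control thus shifts upward by the same amount. The 8 hepatocyte and gate markers, among them ALB, AFP and EPCAM, were well above background on every array, as were VIM, CDH2, ZEB1 and FN1 of the 6 markers of cells outside the gate. CD44, another of the 6, was above it on every Huh1 array and on some Huh7 arrays, and THY1, the last, on none. Among markers of cells other than liver cells PTPRC, CD68 and PECAM1 were above background on every array, CD3E, COL1A1 and ACTA2 on some and HBB on none.

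After 5-FU 27 of the 34 repair genes were called in Huh1 and 24 in Huh7, against 18 and 12 after DSF. Of those called after 5-FU in Huh1, 18 were higher and 9 lower, where all 15844 genes tested gave 25.9% and 29.1%. In Huh7 16 were higher and 8 lower, beside 32.5% and 31.0% of all genes. Under spike-in scaling all 34 genes lay above control after 5-FU in each line, with 30 called higher in Huh1 and 31 in Huh7 and 0 called lower (also 0 at an unadjusted p under 0.05 by limma). With DSF the calls in Huh1 were 6 higher and 12 lower, beside 26.4% and 26.3% of all genes. Spike-in scaling left 4 higher and 0 lower there (6 and 0 at an unadjusted p under 0.05 by limma), beside 7081 and 2419 of all probes. In Huh7 they were 4 higher and 8 lower, beside 29.1% and 24.1%. All 3 arrays of a treatment lay above all 3 controls in 19 of the 34 genes for 5-FU in Huh1 (29.0% of all genes) and below them in 9 (33.6%), and in Huh7 in 17 (36.6%) and 10 (35.3%). For DSF the genes without overlap were 7 above (32.6%) and 15 below (35.4%) in Huh1, and 6 (37.0%) and 10 (32.4%) in Huh7. The 34 genes had a median change of 0.19 (Huh1) and 0.15 (Huh7) with 5-FU, beside -0.025 and -0.0054 over all genes. After DSF it was -0.10 in Huh1 and -0.017 in Huh7, beside -0.021 and 0.038. These arrays measure RNA in bulk, so fewer cells with a transcript and less of it per cell cannot be told apart. Both drugs were compared with the same control arrays, and their values are given side by side for that reason. Nothing in the labels says that the arrays of a group came from separate cultures, although the methods speak of independent experiments, so the p values measure the spread between these arrays.

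**Figure D1:**
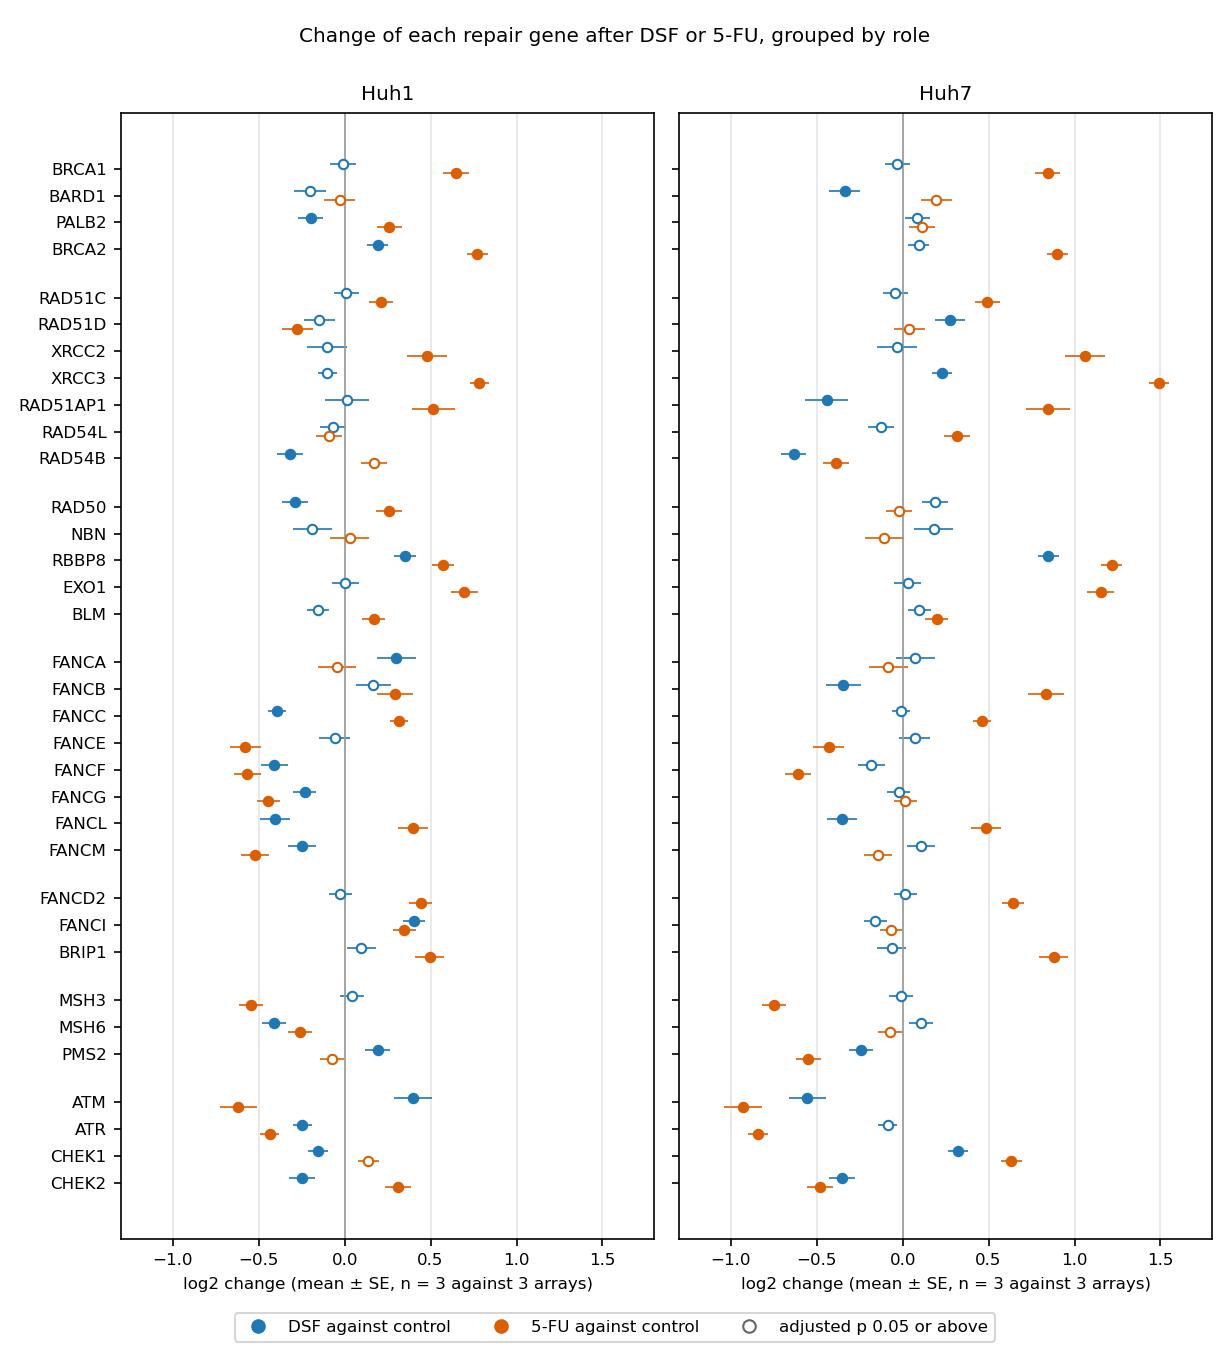
Log2 change against control of the 34 repair genes in Huh1 and Huh7, as mean ± SE of the limma fit with 3 arrays against 3, for DSF (blue) and 5-FU (orange), with the genes grouped by role. Open circles did not pass an adjusted p under 0.05. The 5-FU changes reach from -0.93 (ATM) to 1.49 (XRCC3), both in Huh7, and under spike-in scaling all of them lie above 0.

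By their brightest probes, the set called higher after 5-FU in both lines held 14 of the 34 genes, beside 16.0% of all genes: BRCA1, BRCA2, RAD51C, XRCC2, XRCC3, RAD51AP1, RBBP8, EXO1, BLM, FANCB, FANCC, FANCL, FANCD2 and BRIP1. The 5 genes FANCE, FANCF, MSH3, ATM and ATR fell in both lines relative to the bulk, beside 17.3% of all genes, although spike-in scaling puts all of them above 0. CHEK2 rose in Huh1 and fell in Huh7 (6.62% of all genes were called in opposite directions), and BARD1, NBN and FANCA were called in neither line by their brightest probes. The remaining 11 genes were called in 1 line only.

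Among the BRCA proteins, BRCA1 and BRCA2 rose in both lines. BRCA2, which loads the recombinase onto single strands, read -3.00, -3.15 and -3.10 on the Huh1 control arrays and -2.31, -2.30 and -2.32 after 5-FU. In Huh7 it read -2.46, -2.35 and -2.33 in control and -1.51, -1.54 and -1.39 after 5-FU. All 5-FU arrays lay above all control arrays in each line, with rises of 0.77 (SE 0.061, limma adjusted p = 3.1e-07) and 0.90 (limma adjusted p = 2.14e-08). BRCA1, the ubiquitin ligase that directs breaks toward recombination, rose by 0.65 and 0.84. BARD1, its obligate partner, changed by -0.029 and 0.19 and was not called. PALB2, which joins BRCA1 to BRCA2, rose by 0.26 in Huh1, a call lost under quantile and median scaling, and its change in Huh7 was 0.11.

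The recombinase paralogs XRCC2, XRCC3 and RAD51C, which stabilise the recombinase filament, rose together after 5-FU. XRCC3 gave the largest change of the whole set. Its signal was 2.42, 2.38 and 2.30 on Huh1 control arrays against 3.19, 3.13 and 3.13 after 5-FU, and 1.49, 1.52 and 1.504 on Huh7 control arrays against 3.07, 2.94 and 2.99 after 5-FU. The groups were far apart in each line. The rise was 1.72-fold in Huh1 (log2 0.78, SE 0.056, limma adjusted p = 1.4e-07) and 2.81-fold in Huh7 (log2 1.49, limma adjusted p = 1.23e-10), and with it Huh7, which began lower, came close to the level of Huh1. XRCC2 stood at 0.11, -0.42 and -0.20 in Huh1 control and 0.22, 0.35 and 0.35 after 5-FU. In Huh7 it stood at -0.43, -0.28 and -0.49 in control and at 0.63, 0.58 and 0.78 after 5-FU. The Huh1 control arrays were widely spread for this gene, and their highest array came close to the lowest 5-FU array, whereas in Huh7 the gap was wide. The rises were 0.48 (SE 0.12, limma adjusted p = 0.00374) and 1.06 (limma adjusted p = 2.71e-06). RAD51C rose by 0.21 in Huh1, which median scaling leaves at 0.19 and not called (limma adjusted p = 0.132), and by 0.49 in Huh7. RAD51AP1, which helps strand invasion, rose by 0.52 and 0.85. RAD51D, another paralog, fell by 0.28 in Huh1, a value that spike-in scaling turns to 0.55, and changed by 0.037 in Huh7. The translocases that work with the recombinase differed too, for RAD54L rose by 0.32 in Huh7 (with -0.094 in Huh1) and RAD54B fell by 0.39 there, a value that spike-in scaling turns to 0.60.

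Of the 5 genes of break sensing and end resection, 4 rose after 5-FU in Huh1 and 3 in Huh7. EXO1, the exonuclease of long-range resection, measured 1.83, 1.83 and 1.82 in Huh1 control and 2.55, 2.51 and 2.52 after 5-FU. The values in Huh7 were -0.043, -0.035 and 0.018 in control and 0.96, 1.28 and 1.16 after 5-FU. Each 5-FU array exceeded each control array, and the rises were 0.70 (SE 0.079, limma adjusted p = 7.24e-06) and 1.15 (limma adjusted p = 2.37e-08). RBBP8 encodes CtIP, which starts resection together with the complex of RAD50 and NBN. Its levels were 1.24, 1.36 and 1.39 in Huh1 control, 1.71, 1.66 and 1.68 after DSF and 1.92, 1.93 and 1.86 after 5-FU. In Huh7 they were 0.38, 0.51 and 0.46 in control, 1.42, 1.25 and 1.22 after DSF and 1.66, 1.65 and 1.69 after 5-FU. RBBP8 was thus higher than control on every treated array of each drug and line, and it was the only one of the 34 called higher for both drugs in both lines. It rose by 0.57 in Huh1 (SE 0.062, limma adjusted p = 5.22e-06) and 1.22 in Huh7 (limma adjusted p = 1.75e-09) after 5-FU, and by 0.35 (limma adjusted p = 0.000367) and 0.85 (limma adjusted p = 1.49e-07) after DSF. Median scaling leaves 0.18 for DSF in Huh1, which is not called (limma adjusted p = 0.127). RAD50 rose by 0.26 after 5-FU in Huh1 (0.23 and not called under median scaling, limma adjusted p = 0.069) and changed by -0.020 in Huh7, and NBN changed by 0.029 and -0.11. The helicase BLM rose by 0.17 and 0.20. Its call in Huh1 was lost under most settings, and that in Huh7 without control replicate 3 or either of 5-FU replicates 2 and 3.

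The Fanconi genes split. In the core complex, which ubiquitinates FANCD2 and FANCI, 3 of 8 genes rose and 4 fell in Huh1 after 5-FU, and 3 rose and 2 fell in Huh7, with medians of -0.24 and -0.034, while all 8 lie above control in each line under spike-in scaling. FANCL, the ubiquitin ligase subunit, rose by 0.40 and 0.48, and FANCB, which binds it, by 0.29 and 0.83. The FANCB call in Huh1 is lost under quantile and median scaling and with normexp background correction (0.25, 0.27 and 0.15), and without control replicate 1 or 2 or 5-FU replicate 2 or 3. FANCE fell by 0.58 and 0.43, and FANCF, the adaptor of the complex, by 0.57 and 0.61. FANCG and FANCM, the latter a translocase that anchors the complex on DNA, fell in Huh1 by 0.44 and 0.52 and changed by 0.016 and -0.14 in Huh7. FANCD2, the substrate of the complex, rose by 0.44 and 0.64, and its partner FANCI by 0.35 in Huh1 but changed by -0.069 in Huh7. The helicase BRIP1 rose by 0.50 and 0.88.

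By the brightest probes no mismatch repair gene rose after 5-FU on this scale, and spike-in scaling turns each of the 6 values above 0. MSH3, which with its partner recognises larger loops, fell by 0.55 in Huh1 (SE 0.069, limma adjusted p = 1.98e-05) and 0.75 in Huh7 (limma adjusted p = 4.59e-07). MSH6, which recognises single mismatches, fell by 0.26 in Huh1, a call lost under quantile scaling, and changed by -0.073 in Huh7. PMS2, the endonuclease, fell by 0.55 in Huh7 and changed by -0.074 in Huh1. Its other probes moved up in Huh1, from means of -0.45, -0.21 and -0.82 in control to -0.34, 0.0068 and -0.62 after 5-FU. In Huh7 they moved down, from -0.21, -0.67 and -0.95 to -0.46, -0.80 and -1.135.

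The apical checkpoint kinases ATM and ATR fell after 5-FU relative to the bulk. ATM, the kinase activated by breaks, read -1.21, -1.16 and -1.03 in Huh1 control, -0.72, -0.75 and -0.73 after DSF and -1.92, -1.65 and -1.68 after 5-FU. In Huh7 it read -1.05, -0.98 and -0.96 in control, -1.41, -1.59 and -1.66 after DSF and -2.20, -1.86 and -1.72 after 5-FU. On this brightest probe the 5-FU arrays were the lowest in each line, while the DSF arrays were above control in Huh1 and below it in Huh7. The falls after 5-FU were -0.62 (SE 0.11, limma adjusted p = 0.000346) and -0.93 (limma adjusted p = 5.19e-06), which become 0.21 and 0.058 under spike-in scaling and are not called. ATR, the kinase of stalled forks, fell by 0.44 and 0.84. CHEK1, the effector of ATR, changed by 0.14 in Huh1 and rose by 0.63 in Huh7. CHEK2, the effector of ATM, measured 0.65, 0.78 and 0.72 in Huh1 control, 0.44, 0.48 and 0.48 after DSF and 1.20, 0.95 and 0.92 after 5-FU. In Huh7 they were 1.02, 0.97 and 1.02 in control, 0.58, 0.67 and 0.71 after DSF and 0.45, 0.48 and 0.63 after 5-FU. The 5-FU arrays were the highest in Huh1, and in Huh7 the arrays of each drug lay below control. It rose by 0.31 after 5-FU in Huh1 (limma adjusted p = 0.00348) and fell by 0.48 in Huh7 (limma adjusted p = 7.33e-05), a fall that spike-in scaling turns to 0.50.

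**Figure D2:**
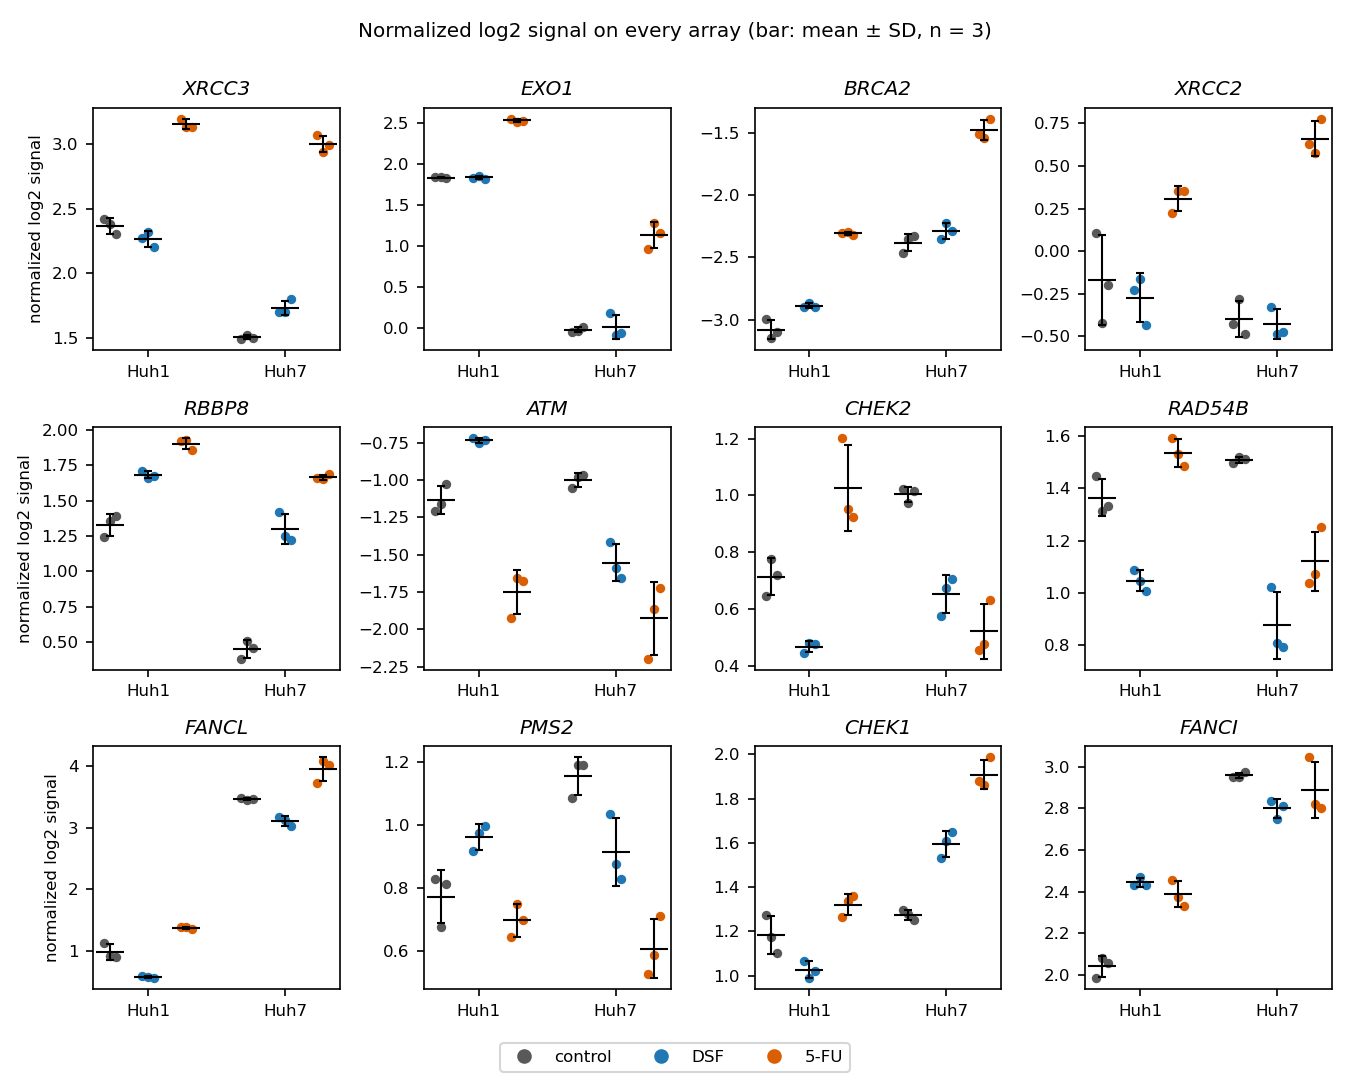
Normalized log2 signal of 12 repair genes on each of the 18 arrays (dots), with the mean ± SD of the 3 arrays of a group (black), for control (grey), DSF (blue) and 5-FU (orange). The 5-FU arrays of XRCC3, EXO1, BRCA2 and XRCC2 lie above all control arrays in each line, whereas the brightest ATM probe after DSF lies above control in Huh1 and below it in Huh7.

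Promoter windows are shown because 14 genes rose together after 5-FU and the replication genes, some of which rose beside them, are known targets of the E2F factors. RefSeq windows of 300 bases (250 before and 50 after the start, GRCh38.p14) were found for 31 of the 34 genes. The E2F-type words TTTCCCGC and TTTGGCGC, searched on both strands, occurred in a window of 5 of these 31 genes (16.1%), in 4.15% of the 12447 genes tested on the array that have a window, and in 2.27% of all 35116 windows. Of the 14 genes called higher after 5-FU in both lines 3 held such a word (21.4%), and of the other 17 genes with a window 2 did (11.8%). CCAAT was found in 15 of 31 (48.4%), against 42.8% of the genes tested. The mean of the FANCC probes was called lower after 5-FU in each line (-0.28 and -0.35), and another FANCD2 probe was called lower in Huh1 (-0.24). The windows of XRCC2, FANCD2 and FANCC, which rose in both lines by their brightest probes, and of MSH3, which fell relative to the bulk, follow 5′ to 3′ on the gene's strand, with the matched word in capitals. A match describes letters only, and a window without a match says only that these letters are not in it. MSH6 was the other gene with a match.
XRCC2 (chr7:152676092-152676391, minus strand): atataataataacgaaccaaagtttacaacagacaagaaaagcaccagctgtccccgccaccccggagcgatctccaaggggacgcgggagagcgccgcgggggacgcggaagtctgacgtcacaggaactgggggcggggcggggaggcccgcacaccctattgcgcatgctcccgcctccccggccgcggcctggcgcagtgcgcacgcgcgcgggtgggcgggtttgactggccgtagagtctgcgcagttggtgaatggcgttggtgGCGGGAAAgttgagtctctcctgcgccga
FANCD2 (chr3:10026187-10026486, plus strand): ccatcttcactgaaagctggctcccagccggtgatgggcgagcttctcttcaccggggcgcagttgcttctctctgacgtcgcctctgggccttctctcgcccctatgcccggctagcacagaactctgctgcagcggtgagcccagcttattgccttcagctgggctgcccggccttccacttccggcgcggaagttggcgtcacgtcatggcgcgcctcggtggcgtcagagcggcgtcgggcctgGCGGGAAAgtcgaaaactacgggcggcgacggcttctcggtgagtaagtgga
FANCC (chr9:95317660-95317959, minus strand): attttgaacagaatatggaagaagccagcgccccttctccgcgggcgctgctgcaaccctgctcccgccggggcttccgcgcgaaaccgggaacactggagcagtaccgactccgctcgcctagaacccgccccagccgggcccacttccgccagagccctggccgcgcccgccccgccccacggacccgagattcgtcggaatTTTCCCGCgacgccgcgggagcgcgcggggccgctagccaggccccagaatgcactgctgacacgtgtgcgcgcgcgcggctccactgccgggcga
MSH3 (chr5:80654402-80654701, plus strand): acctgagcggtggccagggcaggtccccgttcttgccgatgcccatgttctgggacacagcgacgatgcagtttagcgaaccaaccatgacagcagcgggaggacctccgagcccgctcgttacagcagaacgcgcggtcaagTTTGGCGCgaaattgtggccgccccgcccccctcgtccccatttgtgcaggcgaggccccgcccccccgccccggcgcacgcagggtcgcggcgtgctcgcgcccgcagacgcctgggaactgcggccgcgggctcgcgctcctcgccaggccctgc
The word lies at base 272 of the XRCC2 window, 249 of the FANCD2 window, 205 of the FANCC window and 144 of the MSH3 window. In FANCD2 it spans the start site, and in XRCC2 it lies downstream of it.

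Of the 14 genes that 5-FU raised in both lines, 7 were called in neither line after DSF by their brightest probes. EXO1 changed by 0.0035 and 0.030 after DSF (SE 0.079), BRCA1 by -0.0098 and -0.030, FANCD2 by -0.026 and 0.015, and XRCC2 by -0.10 and -0.032, and the remaining 3 were RAD51C, BLM and BRIP1. Another FANCD2 probe was called lower in each line, with means from 0.23 to 0.011 in Huh1 and from 1.15 to 0.82 in Huh7. Median scaling calls FANCD2 (-0.20) and BLM (-0.33) lower in Huh1. RBBP8 rose in both lines (11.7% of all genes did), RAD54B, FANCL and CHEK2 fell in both (10.4%), PMS2, ATM and CHEK1 were called in opposite directions (8.82%), and 11 genes were called in neither line.

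RAD54B, a translocase of recombination, read 1.45, 1.32 and 1.33 in Huh1 control and 1.09, 1.05 and 1.01 after DSF. In Huh7 it read 1.496, 1.52 and 1.51 in control and 1.02, 0.81 and 0.80 after DSF. Every DSF array was below every control array, with falls of 0.32 (SE 0.073, limma adjusted p = 0.00266) and 0.63 (limma adjusted p = 9.68e-06). The change in Huh7 was -0.49 with the slide as a block, from DSF replicate 1 alone. In Huh1 the other RAD54B probe rose by 0.57 (limma adjusted p = 0.000356), and the mean of the RAD54B probes was 0.13 and not called. Spike-in scaling leaves -0.18 there for the brightest probe, which is not called either. FANCL stood at 1.13, 0.91 and 0.90 in Huh1 control against 0.59, 0.57 and 0.56 after DSF and 1.39, 1.39 and 1.35 after 5-FU. In Huh7 it stood at 3.48, 3.45 and 3.48 in control, at 3.18, 3.13 and 3.03 after DSF and at 3.73, 4.09 and 4.03 after 5-FU. The 2 drugs thus moved FANCL to opposite sides of control, with -0.41 (limma adjusted p = 0.00158) and -0.35 (limma adjusted p = 0.00425) for DSF and a rise of 0.40 and 0.48 with 5-FU. With the slide as a block the DSF change in Huh7, from DSF replicate 1 alone, was -0.29. Under spike-in scaling the DSF change of FANCL in Huh1 is -0.27 and not called. CHEK2 fell by 0.25 (limma adjusted p = 0.0156) and 0.35 (limma adjusted p = 0.00168) after DSF, on arrays that did not overlap with control in either line. The first becomes -0.11 under spike-in scaling and is not called.

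Of the 3 genes called in opposite directions, ATM moved most, by 0.40 in Huh1 (SE 0.11, limma adjusted p = 0.00867) and -0.55 in Huh7 (limma adjusted p = 0.00093). The Huh1 call is lost under median scaling (0.23), and with the slide as a block the Huh7 change is -0.42, from DSF replicate 1 alone. These are values of the brightest ATM probe. The second ATM probe moved down in each line, from a mean of -1.45 to -1.54 in Huh1 (not called) and from -1.52 to -1.78 in Huh7. PMS2 gave 0.83, 0.68 and 0.81 in Huh1 control and 0.92, 0.98 and 1.00 after DSF, and 1.09, 1.19 and 1.19 in Huh7 control and 1.04, 0.88 and 0.83 after DSF. The change was small in each line, 0.19 (limma adjusted p = 0.0403) and -0.24 (limma adjusted p = 0.0123), and the second is -0.12 with the slide as a block. The first is 0.019 under median scaling (limma adjusted p = 0.877) and is not called under most settings. CHEK1 gave 1.27, 1.18 and 1.102 in Huh1 control and 1.07, 0.99 and 1.02 after DSF. In Huh7 it gave 1.30, 1.28 and 1.25 in control and 1.53, 1.61 and 1.65 after DSF, so that the arrays lay below control in Huh1 and above it in Huh7. It fell by 0.16 (limma adjusted p = 0.0439), a call lost under most settings, and rose by 0.32 (limma adjusted p = 0.000528). With the slide as a block the rise was 0.26, from DSF replicate 1 alone.

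The other genes called after DSF were called in 1 line. In Huh1 the falls were those of MSH6 (-0.41), FANCF (-0.41), FANCC (-0.40), RAD50 (-0.29), FANCM (-0.25), ATR (-0.25), FANCG (-0.23) and PALB2 (-0.20), so that 5 of the 8 core complex genes of the Fanconi pathway were lower, and spike-in scaling removes each of these calls without turning the sign. FANCI rose by 0.40 there, FANCA by 0.30 (0.13 and not called under median scaling, limma adjusted p = 0.359) and BRCA2 by 0.19, the last of these lost under quantile, median and spike-in scaling. In Huh7 RAD51D and XRCC3 rose by 0.28 and 0.23, neither of them called under spike-in scaling (0.10 and 0.054) and RAD51D not under median scaling either (0.26, limma adjusted p = 0.0576). RAD51AP1, FANCB and BARD1 fell by 0.44, 0.35 and 0.34.

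Some falls in Huh7 differed in size between DSF replicate 1 and the replicates on the slide scanned on another day. RAD51AP1, given by array here after its values were seen, read 0.52, 0.52 and 0.64 on the Huh7 control arrays and 0.50, -0.0010 and -0.13 on the DSF arrays, where the first of these lay beside the controls and the others below them. FANCB showed the same split, with -1.71, -1.71 and -1.69 in control and -1.74, -2.20 and -2.20 after DSF. With the slide as a block these changes, from DSF replicate 1 alone, became -0.066 and -0.038, and that of BARD1 -0.10. The other falls became -0.49 in RAD54B, -0.43 in CHEK2, -0.42 in ATM, -0.29 in FANCL and -0.12 in PMS2. Among the genes called higher, the changes became 0.97 in RBBP8, 0.40 in RAD51D, 0.26 in CHEK1 and 0.20 in XRCC3. Since it rests on DSF replicate 1 alone, this setting cannot separate the slide from the spread between DSF arrays.

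By the interaction term the response differed between the lines for 15 of the 34 genes after DSF, beside 46.3% of all genes, and for 16 after 5-FU, beside 43.6%. Each difference is the Huh7 change with the Huh1 change subtracted. After DSF the largest were -0.95 in ATM (SE 0.16, limma adjusted p = 0.000274), -0.56 in FANCI (limma adjusted p = 0.000274), 0.52 in MSH6 (limma adjusted p = 0.000796) and -0.51 in FANCB (limma adjusted p = 0.0122). The ATM value is that of the brightest probe, and the second ATM probe moved down in both lines. FANCI read 1.98, 2.08 and 2.06 in Huh1 control and 2.43, 2.47 and 2.43 after DSF, against 2.95, 2.95 and 2.97 in Huh7 control and 2.84, 2.75 and 2.81 after DSF. MSH6 read 4.51, 4.30 and 4.30 in Huh1 control and 4.01, 3.96 and 3.90 after DSF, against 4.28, 4.35 and 4.31 in Huh7 control and 4.55, 4.37 and 4.35 after DSF. The groups were apart in Huh1 for each gene, upward for FANCI and downward for MSH6. In Huh7 the FANCI arrays lay below control without being called (limma adjusted p = 0.0585), and those of MSH6 overlapped with control. FANCB, whose Huh7 arrays are given above, read -2.27, -2.23 and -2.20 in Huh1 control and -2.02, -2.00 and -2.19 after DSF, where all DSF arrays were higher but the change of 0.17 was not called (limma adjusted p = 0.212). With the slide as a block its Huh7 change was near 0, as given above.

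After 5-FU 11 of the 16 differences were above 0. The largest came to -0.80 in CHEK2 (SE 0.11, limma adjusted p = 5.9e-05), where the directions were opposite by the brightest probe, 0.71 in XRCC3 (limma adjusted p = 1.29e-05), 0.64 in RBBP8 (limma adjusted p = 7.2e-05) and 0.58 in XRCC2 (limma adjusted p = 0.0135). For CHEK2 spike-in scaling puts the change above 0 in each line (1.14 and 0.50). The second CHEK2 probe did not rise in Huh1, with means of -1.07 in control and -1.10 after 5-FU. EXO1, FANCB, BRIP1 and RAD51C also rose more in Huh7, by 0.46, 0.54, 0.38 and 0.28. For BRCA1 and BRCA2 the differences of 0.20 and 0.13 were not called (limma adjusted p = 0.164 and 0.276).

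**Figure D3:**
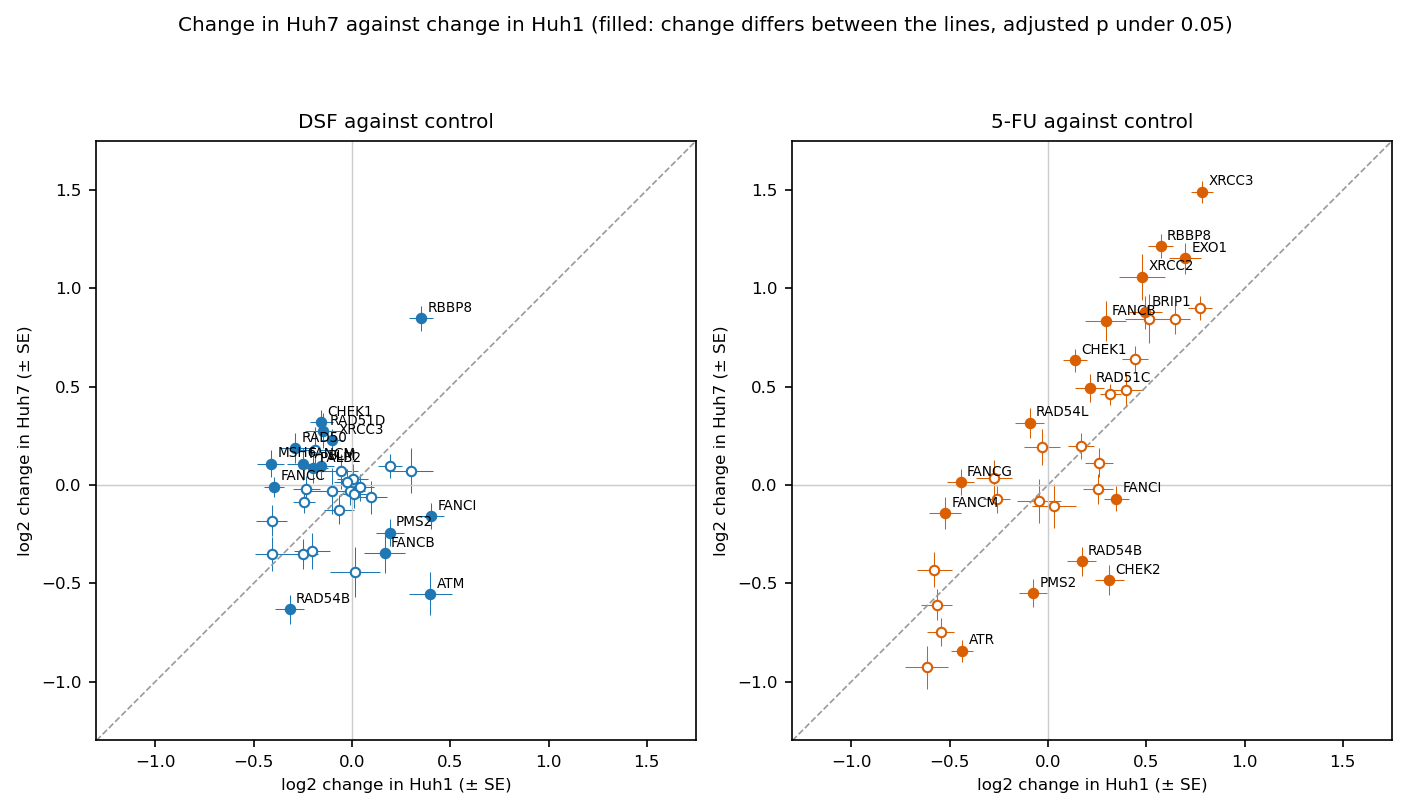
Log2 change against control in Huh7 plotted against that in Huh1 (each ± SE, 3 arrays against 3) for the 34 genes after DSF and after 5-FU, with the line of equal change dashed. Filled and named points differ between the lines at an adjusted p under 0.05, which were 15 genes after DSF and 16 after 5-FU. Of all genes 46.3% and 43.6% did. The 14 genes that rose in both lines after 5-FU all lie above the dashed line.

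Set directly against each other, DSF left 18 of the 34 genes lower than 5-FU and 8 higher in Huh1, and 17 lower and 11 higher in Huh7. All genes gave 25.3% lower and 30.5% higher in Huh1, and 30.7% and 34.5% in Huh7. Spike-in scaling gave 31 lower and 0 higher in Huh1 and 34 and 0 in Huh7 (also 0 higher at an unadjusted p under 0.05 by limma). Of all 29894 probes tested it called 18725 lower and 1382 higher in Huh1, and 24196 and 826 in Huh7. The genes lower with DSF in both lines were led by XRCC3 (-0.89 in Huh1 and -1.26 in Huh7), EXO1 (-0.69 and -1.12), RAD51AP1 (-0.50 and -1.29), XRCC2 (-0.58 and -1.09) and FANCL (-0.80 and -0.84). Those higher with DSF in both lines were ATM (1.02 and 0.37), MSH3 (0.59 and 0.74), FANCE (0.52 and 0.50), ATR (0.19 and 0.75), PMS2 (0.27 and 0.31) and FANCM (0.27 and 0.25). Spike-in scaling turns this direction for all of them in Huh7. In Huh1 it turns the direction for all but ATM, which is not called under it.

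Without a drug the lines already differed in 26 of the 34 genes, with 15 higher and 11 lower in Huh7, beside 39.3% and 38.6% of all genes, or 77.9% in either direction. FANCL was 5.6-fold higher in Huh7 (log2 2.49, limma adjusted p = 2.85e-12), and FANCG, FANCI and FANCD2 were higher by 1.12, 0.92 and 0.86. FANCC, EXO1 and NBN were lower in Huh7, with differences of -2.00, -1.85 and -1.72 (limma adjusted p = 1.05e-13, 2.64e-11 and 3.25e-09). ATM, MSH6, CHEK1, BRIP1, RAD51C, RAD51D, RAD54B and XRCC2 were not called, with differences between -0.23 and 0.14. In 4 of 5 break sensing and resection genes the level was lower in Huh7, and BLM was the exception (0.85 higher).

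For 11 of the 34 genes the array carries more than 1 probe, and the 16 further probes did not always move with the brightest. In 5 genes (RAD54B, FANCC, RAD51D, FANCD2 and FANCF) another probe was called in the opposite direction for a drug. The other FANCC probe changed by -0.87 and -1.16 after 5-FU, where the brightest rose by 0.32 and 0.46, and by 0.70 after DSF in Huh1. The other FANCF probe rose by 0.72 after 5-FU in Huh7 (limma adjusted p = 1.33e-07), against -0.61 for the brightest. For RAD54B the other probe rose by 0.57 after DSF in Huh1 and changed by -0.70 in Huh7. The second ATM probe changed by -0.088 (not called) and -0.26 after DSF and by -0.14 and -0.16 (not called) after 5-FU, so the rise of ATM in Huh1 was seen by the brightest probe only. Another FANCA probe was called higher after 5-FU in each line (0.54 in Huh1 and 0.90 in Huh7) and the last one higher in Huh1 (0.20) and lower in Huh7 (-0.18), and the mean of all FANCA probes was called higher too, at 0.23 (limma adjusted p = 0.0255) and 0.21 (limma adjusted p = 0.0314). Another FANCD2 probe was called lower after DSF, by -0.22 in Huh1 and -0.33 in Huh7, and after 5-FU in Huh1, by -0.24, where the mean of the FANCD2 probes was 0.13 and not called (limma adjusted p = 0.136). The second CHEK2 probe changed by -0.031 after 5-FU in Huh1 (not called) and by -0.90 in Huh7. FANCL was called the same way on both of its probes in all 4 comparisons, and the signs of the ATR probes matched in each. PMS2 and CHEK2 have closely similar pseudogene copies, and their values are uncertain for that reason. XRCC3, EXO1, RBBP8, BRCA1, BRCA2 and XRCC2 each rest on 1 probe.

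**Figure D4:**
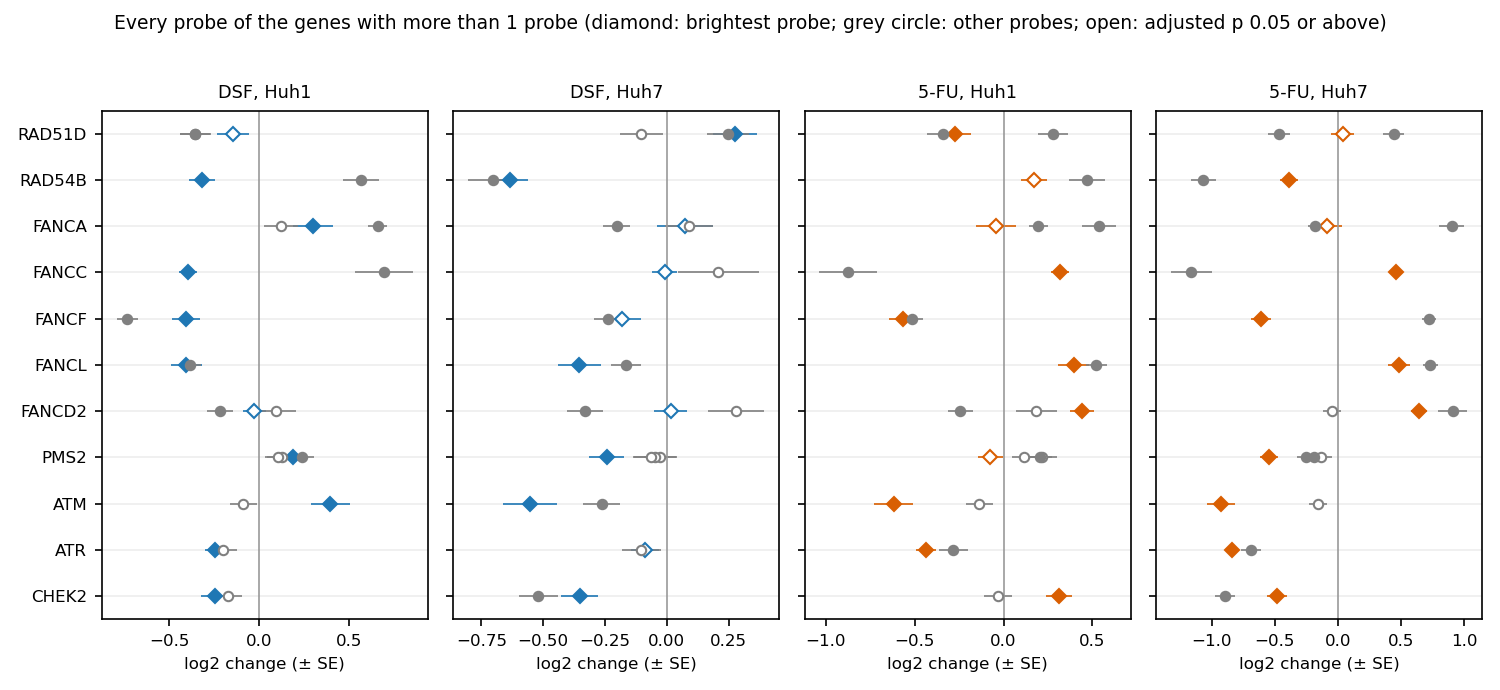
Log2 change (± SE, 3 arrays against 3) of every probe of the 11 genes with more than 1 probe, in the 4 comparisons with control. Diamonds are the brightest probe, grey circles the other probes, and open symbols did not pass an adjusted p under 0.05. FANCC and RAD54B show probes on opposite sides of 0, whereas the FANCL probes lie together.

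Another 44 genes of the same pathways were examined beside the 34. After 5-FU 16 were called higher and 10 lower in Huh1, with a median of 0.097, and 28 and 8 in Huh7, with a median of 0.37 (40 and 0, and 41 and 0, under spike-in scaling, with 0 and 1 lower at an unadjusted p under 0.05 by limma). PSMC3IP, a cofactor of strand exchange, rose by 1.22 in Huh7, CLSPN, the mediator between ATR and CHEK1, by 1.18, and SFR1, another cofactor of strand exchange, by 0.85 in Huh1. TP53BP1, which protects ends from resection, fell by 0.78 and 1.28. DSF gave 11 higher and 13 lower in Huh1, with 18 and 6 in Huh7 (10 and 3, and 3 and 6, under spike-in scaling), with SFR1 up by 1.28 and PSMC3IP by 1.097 in Huh1 and RMI2, a partner of BLM, down by 1.18 in Huh7.

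Replication and mitosis genes, whose transcripts mark the S phase and the G2 and M phases of the cycle, moved beside the repair genes. After 5-FU 8 of 22 replication genes were higher and 7 lower in Huh1 by their calls, and 17 and 1 in Huh7 (20 and 0, and 21 and 0, under spike-in scaling). CDC6, which loads the replicative helicase, rose by 0.86 and 2.08. Of 15 mitosis genes 13 were called lower in Huh1 after 5-FU and 0 higher (also 0 at an unadjusted p under 0.05 by limma), and 9 and 1 in Huh7, where spike-in scaling gives 4 higher and 5 lower in Huh1, with 12 and 0 in Huh7. CCNB1 and CCNB2, the mitotic cyclins, fell by 1.35 and 1.39 in Huh1, and PLK1, a mitotic kinase, by 0.70 in Huh7. After DSF 8 replication genes were called lower and 0 higher in Huh1 (1 higher at an unadjusted p under 0.05 by limma), and in Huh7 7 were higher and 2 lower. Spike-in scaling left 2 lower with 0 higher in Huh1 (also 0 at an unadjusted p under 0.05) and 2 lower with 1 higher in Huh7. The mitosis genes gave 1 higher and 11 lower in Huh1, with 0 and 10 in Huh7 (1 and 3, and 0 and 9, under spike-in scaling). With the slide as a block, the Huh7 medians rest on DSF replicate 1 alone. They went from -0.25 to -0.13 for the mitosis genes and from 0.099 to 0.18 for the replication genes. The share of cells in each phase was not measured on these arrays, and its part in the changes of the repair genes was not tested.

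Markers of the sorted cells changed with each drug. After DSF, of the 8 hepatocyte and gate markers 7 were called lower and 0 higher in Huh1 (also 0 at an unadjusted p under 0.05 by limma), and 4 lower and 2 higher in Huh7, with a median change of -0.59 and -0.22. Of all genes 26.3% were lower and 26.4% higher in Huh1, and 24.1% and 29.1% in Huh7. Spike-in scaling left 4 of the 8 lower and 0 higher in each line (0 and 1 higher at an unadjusted p under 0.05 by limma). EPCAM went from a mean level of 2.62 to 1.96 in Huh1 and from 5.49 to 5.00 in Huh7 after DSF, and to 3.01 and 5.74 after 5-FU. Of 6 markers of cells outside the gate 5 were tested, and 4 of them were called higher in Huh7 after DSF, with a median of 0.72, against 1 higher and 2 lower in Huh1. VIM, an intermediate filament of mesenchymal cells, rose by 0.38 and 0.72. After 5-FU the 8 hepatocyte and gate markers gave 2 higher and 3 lower in Huh1 (median 0.056), with 5 and 2 in Huh7 (median 0.35), and the 5 tested markers of cells outside the gate gave 1 and 2 (median -0.052), with 3 and 1 in Huh7 (median 0.23). THY1 was not tested. The part of these markers in the changes of the repair genes was not tested.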

How the data were processed

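EpCAM+ cells of 6 groups were hybridised to 1-color Agilent arrays, 3 per group. The authors deposited spot intensity values from Agilent Feature Extraction (version 10.7.1.1 in the submitters' processing notes, another in the methods), background-subtracted and not scaled between arrays, and a table of normalized intensity scaled in GeneSpring. Once its log2 was taken, 100% of that table's values on every array lay within 0.05 log2 of a constant from the spots. Here outlier spots (316 to 447 per array) were left out, spots of a probe averaged, and the array's 75th percentile subtracted. Of 42405 probes 78 had no usable spot, and the 29894 tested exceeded background well on each array of 1 or more groups. A single limma fit over 18 arrays (limma 3.58.1, R 4.3.3) gave 9 contrasts, with Benjamini-Hochberg adjustment. Probes were named through RefSeq accessions (25736 of 27099), from a table of a later genome build, so no probe coordinates are given. Correlation between replicate arrays was 0.9887 to 0.9972.

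The 34 genes, the other lists and the rules were chosen with earlier results of these data known. Genes given array by array are those called in both lines (up to 6 per drug by size), called in opposite directions, or with the 4 largest differences between lines. Alternatives were quantile, median and spike-in scaling, normexp with an offset of 50 (on median spot signal, since mean signal was not used here), the authors' table, 2 filters, the mean of all probes, replicate and slide blocks, fits per line, the study's selection rule, and each array left out. The fitting step was tested on simulated data. The number of arrays limits the precision. Python 3.11.15, pandas 2.3.3, numpy 2.4.6 and matplotlib 3.10.9 were used.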

Additional observations from a re-analysis of the deposited data

Results flagged for a closer look

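The change after a drug differed between the lines, by the interaction term of the limma fit, in 15 of the 34 genes for DSF and 16 for 5-FU. Among all genes 46.3% differed for DSF and 43.6% for 5-FU. Spike-in scaling left 6 and 9 of the 34, and under it the DSF differences of PALB2 and BLM changed sign. Values are the log2 change in Huh7 minus that in Huh1. After DSF the difference was above 0 in PALB2 (0.28), RAD51D (0.42), XRCC3 (0.33), RAD50 (0.48), RBBP8 (0.50), BLM (0.25), FANCC (0.39), FANCM (0.36), MSH6 (0.52) and CHEK1 (0.48). It was below 0 in RAD54B (-0.32), FANCB (-0.51), FANCI (-0.56), PMS2 (-0.43) and ATM (-0.95). Among these, by the brightest probes, RBBP8 rose and RAD54B fell in both lines and more in Huh7, whereas ATM, PMS2 and CHEK1 were called in opposite directions. The second ATM probe moved down in both lines. The largest limma adjusted p among the 15 was that of BLM (0.0432), and those of FANCI and ATM were the smallest (0.000274 for each).

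After 5-FU the difference was above 0 in RAD51C (0.28), XRCC2 (0.58), XRCC3 (0.71), RAD54L (0.41), RBBP8 (0.64), EXO1 (0.46), FANCB (0.54), FANCG (0.46), FANCM (0.38), BRIP1 (0.38) and CHEK1 (0.49). It was below 0 in RAD54B (-0.56), FANCI (-0.42), PMS2 (-0.47), ATR (-0.41) and CHEK2 (-0.80). XRCC3 had the smallest limma adjusted p (1.29e-05) and RAD51C the largest (0.0437).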

How the results depend on the processing

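Values are counts of the 34 genes or log2 changes. Spike-in scaling moved the most counts. It gave after 5-FU 30 higher with 0 lower for Huh1 and 31 with 0 for Huh7. Of all probes this scaling called after 5-FU, 98.4% were higher in Huh1 and 95.7% in Huh7. After DSF it gave 0 lower in Huh1 and 1 higher in Huh7, for DSF against 5-FU 0 higher and 31 lower in Huh1, with 0 and 34 in Huh7, and for the difference between lines 6 genes after DSF and 9 after 5-FU. It turned 5-FU values in Huh1 to 0.80 in BARD1, 0.55 in RAD51D, 0.73 in RAD54L, 0.78 in FANCA, 0.25 in FANCE, 0.26 in FANCF, 0.38 in FANCG, 0.30 in FANCM, 0.28 in MSH3, 0.57 in MSH6, 0.75 in PMS2, 0.21 in ATM and 0.39 in ATR. In Huh7 it turned them to 0.60 in RAD54B, 0.97 in RAD50, 0.88 in NBN, 0.90 in FANCA, 0.56 in FANCE, 0.38 in FANCF, 0.84 in FANCM, 0.92 in FANCI, 0.24 in MSH3, 0.91 in MSH6, 0.44 in PMS2, 0.058 in ATM, 0.14 in ATR and 0.50 in CHEK2. It also turned the line difference after DSF in PALB2 (-0.024) and BLM (-0.056). Median scaling gave 1 higher and 19 lower after DSF in Huh1, 3 higher for DSF against 5-FU in Huh1 and 6 in Huh7. The slide as a block and the fit within slides rest on DSF replicate 1 alone for Huh7, so no counts are given for them. The study's own selection rule gave 7 higher for DSF against 5-FU in Huh7. The mean of all probes of a gene turned RAD54B (0.13) and FANCC (0.15) after DSF in Huh1, FANCA (0.23) and FANCC (-0.28) after 5-FU in Huh1, FANCA (0.21), FANCC (-0.35) and FANCF (0.056) after 5-FU in Huh7, and the line difference of FANCC after DSF (-0.051). For these probes the construction shows the cause, since they moved apart. Median and spike-in scaling by construction shift every change of a comparison by the same amount. Why the scalings differ between groups was not tested.

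Leaving out each array in turn gave, after DSF, 3 to 6 higher and 9 to 11 lower in Huh1 and 3 to 5 and 5 to 9 in Huh7. After 5-FU it gave 14 to 18 and 8 to 9 in Huh1 and 15 to 16 and 8 to 9 in Huh7. For DSF against 5-FU the ranges were 6 to 8 higher and 17 to 18 lower in Huh1 and 6 to 11 and 16 to 17 in Huh7. Between the lines 12 to 15 genes differed after DSF, 14 to 19 after 5-FU and 24 to 26 without a drug. The count of 3 higher after DSF in Huh1 came without control replicate 2, control replicate 3 or DSF replicate 2. The count of 5 lower in Huh7 came without DSF replicate 3, and for DSF against 5-FU in Huh7 the counts of 7 and 6 higher came without 5-FU replicate 2 and DSF replicate 1. Over the values of single genes, 1137 kept direction and side of the threshold when an array was left out, 92 lost and 7 gained a call, and 0 turned. Over the other settings 2002 kept both, 138 lost and 36 gained a call, and 37 turned.

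The replicate numbers are shared between groups, but same-numbered arrays did not deviate together (r from -0.093 to 0.024 over 18 pairs), so the numbers were not taken as pairs. With the replicate number as a block, DSF gave 4 genes higher and 9 lower in Huh1, with 4 and 8 in Huh7, and 5-FU gave 15 and 9 and then 16 and 8. DSF against 5-FU gave 7 and 17 in Huh1 and 10 and 17 in Huh7, the differences between lines 12 and 14, and the untreated lines 23. The settings for the other pathway, replication and mitosis genes were chosen after seeing the data. With 3 arrays per group, the smallest changes called in the 4 comparisons with control were between 0.16 and 0.23.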
